A study of Bos taurus with 4 samples.

Results

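The genes described here encode the machinery that brings proteins into mitochondria. They were every gene whose symbol in the platform's probe annotation began with TIMM, TOMM or GRPEL, or was PAM16, SAMM50, MTX1, MTX2, PMPCA, PMPCB, CHCHD4 or OXA1L. On the array 47 probes carried such a symbol and stood for 30 genes out of 15215 with a probe, and the brightest probe of each gene was used. No probe carried the symbol PAM16. Of the 30 genes, 29 could be tested, out of 11821 tested genes in all.

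The study asked how cryopreservation of bovine morulae alters the transcriptome of the blastocysts that form from them. The slow-frozen embryos were compact morulae produced in vitro, equilibrated in glycerol, cooled slowly, stored in liquid nitrogen, thawed and cultured to expanded blastocysts. The control embryos were morulae of the same in vitro fertilization runs that were cultured on without freezing. Each of 4 arrays, all on 1 slide, carried 1 pool of slow-frozen blastocysts and 1 pool of control blastocysts in different dyes (n = 4 pairs of pools, biological replicates by the methods), with the slow-frozen pool in Cy5 on arrays 1 and 2 and in Cy3 on arrays 3 and 4. All embryos came from abattoir ovaries of beef cattle and were labelled as 7 per pool and 7 days after fertilization. The methods place the collection of the morulae on day 7, with further culture to blastocysts after it. They also give a range of pool sizes, with 7 as the largest. The sample labels also mark both channels as cryopreserved, so the groups were read from the source name of each channel. Only morulae that survived to the blastocyst stage were collected, and each pool held whole blastocysts, so a difference in RNA per cell cannot be told apart from a difference in the number of cells of a type.

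Most mitochondrial proteins are made in the cytosol and carry signals that direct them to the organelle. The TOM complex of the outer membrane recognises them and lets them through, after which the SAM complex builds barrel proteins into the outer membrane, small TIM chaperones escort hydrophobic carriers across the intermembrane space, and the TIM22 and TIM23 complexes insert or pass proteins at the inner membrane. A motor in the matrix pulls the chain in and a peptidase removes the targeting signal. Cleavage-stage mitochondria of mammals are small and rounded, and they mature as the blastocyst forms, when oxidative metabolism rises.

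Between 24638 and 31529 of 43794 probes exceeded the detection limit of their channel, defined as the 95th percentile of the negative control spots, and the median signal per channel ranged from 124 to 232 intensity units in slow-frozen pools and from 93 to 237 units in control pools. All 8 trophectoderm markers examined, among them CDX2 and GATA3, were detected in all 8 readings, and each of the 3 epiblast markers was detected in at least 6. Of 3 hypoblast markers, 2 had a probe. GATA4 was detected in all 8 readings, and SOX17 in 2 slow-frozen and 1 control reading, too few to be tested. Of 6 cumulus and granulosa markers, AMH, FOXL2 and LHCGR were detected in 0 readings, CYP19A1 in 8 and FSHR and INHBA in 7 each. Of 4 sperm markers, PRM2 was detected in 0 readings, PRM1 and TNP1 in 5 each and TNP2 in 7. The part of other cell types in the results was not tested. Over all tested genes the ratios of the 4 arrays were weakly or negatively correlated with each other, with Pearson's r between -0.25 and 0.07.

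The import genes differed little in signal between slow-frozen and control blastocysts, and none differed beyond the spread of the arrays after adjustment. Ratios are given as log2 of slow-frozen over control from a limma fit with a dye term, with the moderated standard error (SE). Of the 29 tested genes, 13 were higher and 16 lower in slow-frozen pools (44.8% higher, against 49.0% of all tested genes), with a median of -0.0075 (median of all tested genes -0.0035). With median centring of each array in place of loess the split was 4 higher and 25 lower, and 28.0% of all tested genes were higher, around a median of -0.128. None passed Benjamini-Hochberg adjustment in limma: 0 of 29 import genes and 0% of all tested genes were called, the lowest adjusted limma p of the import genes was 1.00 after rounding, and 1 import gene, TIMM22, had an unadjusted p under 0.05, against 1.91% of all tested genes. The fitted ratios ran from -0.21 for TOMM70 to 0.43 for TIMM22. Of the 29 genes, 16 lay within 0.1 of zero and 24 within 0.2, and all 29 lay within 1.5-fold, as did 99.5% of all tested genes. The precision is set by the 4 arrays: the 95% intervals reached 0.33 to 0.83 on either side of the ratio. In this loess fit they left out a 2-fold difference for 28 genes, all but TIMM17B, and a 1.5-fold difference for 18. With median centring TOMM70 had a ratio of -0.52 and an unadjusted limma p of 0.071, so a 2-fold difference was not left out there. The median SE was 0.169 for the import genes and 0.162 for all tested genes. The count of 13 higher genes moved with the pools included: it was 21 without array 1, 11 without array 2, 12 without array 3 and 21 without array 4. Of all tested genes 50.5%, 46.9%, 50.2% and 49.1% were higher in the same fits. Each fit kept the dye term, so the 1 array left in its dye orientation counted as much as the other pair.

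**Figure D1:**
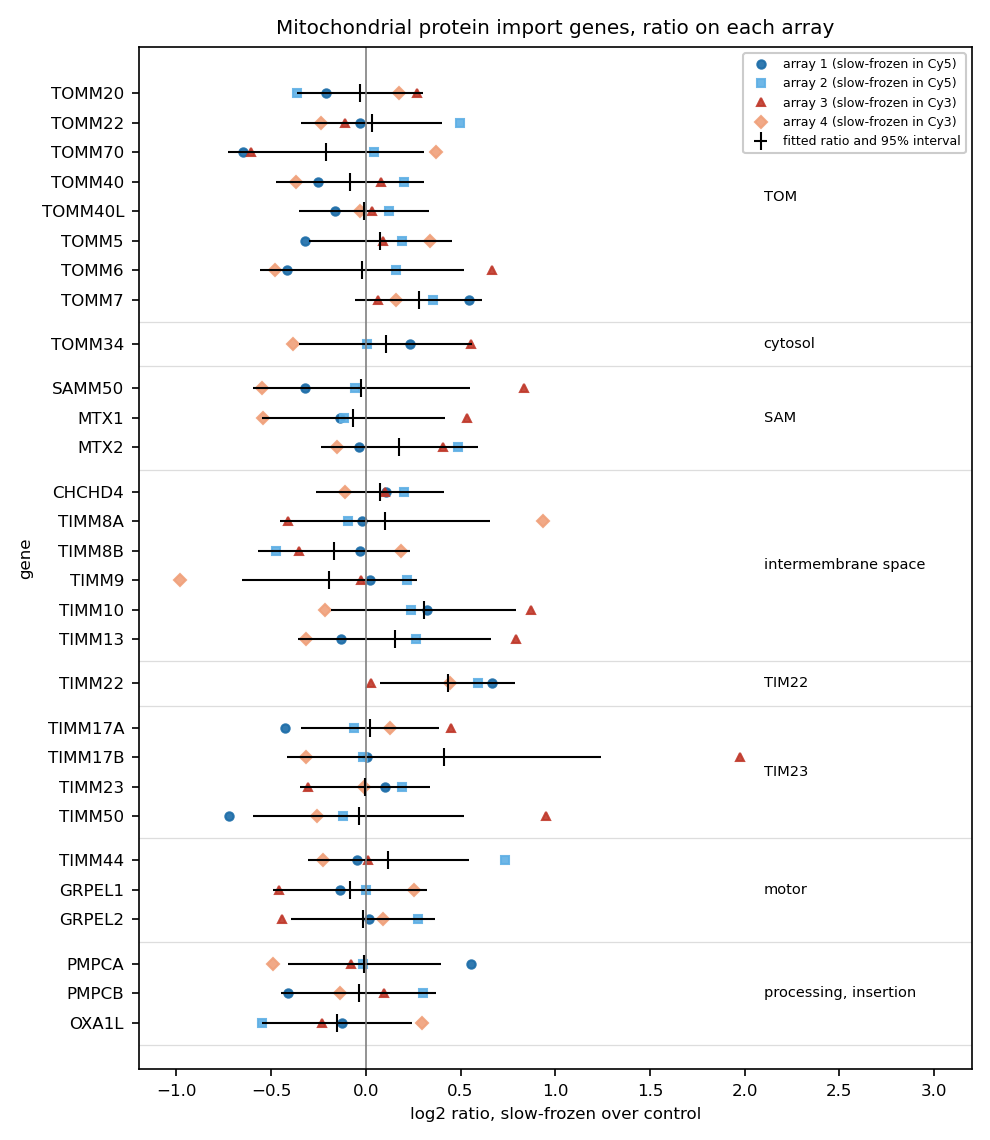
Log2 ratio of slow-frozen over control on the x axis for the 29 tested import genes, grouped by the step of import. Coloured points are the 4 arrays, and the black tick and bar are the fitted ratio and its 95% interval. The points of most genes fall on both sides of 0, and only the interval of TIMM22, from 0.08 to 0.79, lies to the right of it, while the point of TIMM17B on array 3 stands at 1.98.

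The TOM complex, the entry gate of the outer membrane, was represented by 9 genes, of which 3 of 8 tested were higher and 5 lower, with a median of -0.01. The channel gene TOMM40 had a fitted ratio of -0.08 ± 0.16 (SE) and its paralogue TOMM40L one of -0.01 ± 0.14. The readings of the TOMM40 probe lay between 0.945 and 2.37 times the detection limit, so its ratio was measured close to background. The receptor genes TOMM20 and TOMM22, whose products bind targeting signals at the surface, differed by -0.03 ± 0.14 and 0.03 ± 0.16.

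TOMM70, the receptor for carrier proteins with internal signals, had the lowest ratio of the import genes. Its normalised log2 signal was 12.26, 12.35, 12.26 and 12.99 in the slow-frozen pools of arrays 1 to 4 and 12.91, 12.31, 12.87 and 12.62 in the control pools. The ratios of -0.65, 0.04, -0.61 and 0.37 were negative on arrays 1 and 3 and positive on arrays 2 and 4, and the groups overlapped. The fitted ratio was -0.21 ± 0.21 (0.864-fold, 95% interval of the log2 ratio -0.73 to 0.30). It was -0.04 without array 1, 0.03 without array 3 and -0.45 without array 4, and -0.52 with median centring.

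The small subunits TOMM5, TOMM6 and TOMM7 surround the channel and influence its assembly. TOMM7 was higher in the slow-frozen pool on all 4 arrays, with log2 signals of 13.39, 12.98, 12.77 and 13.03 in slow-frozen pools against 12.84, 12.63, 12.70 and 12.87 in control pools. The levels of the groups overlapped, since the slow-frozen pool of array 3 lay below the control pools of arrays 1 and 4. The ratios were 0.55, 0.35, 0.06 and 0.16, and the fit gave 0.28 ± 0.14 (1.21-fold, 95% interval of the log2 ratio -0.05 to 0.62), or -0.02 with median centring. A positive ratio on all 4 arrays was found for 2 of the 29 import genes, TIMM22 and TOMM7, and for 3.52% of all tested genes, and a negative one on all 4 arrays for 0 import genes and 4.01% of all tested genes. TOMM5 (0.08 ± 0.16) and TOMM6 (-0.02 ± 0.22) had ratios of both signs over the arrays. TOMM20L, a paralogue of TOMM20, was not tested because only 1 slow-frozen and 2 control readings of its probe passed the limit.

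The SAM complex inserts barrel proteins such as TOMM40 itself. By their brightest probes, all 3 of its genes were higher in the slow-frozen pool on array 3 and lower on array 4. SAMM50, the central subunit of the complex, had ratios of -0.32, -0.06, 0.83 and -0.55 and a fitted ratio of -0.02 ± 0.24. The metaxin MTX1 likewise had 0.53 on array 3 and -0.54 on array 4 (fit -0.07 ± 0.20), and MTX2 had 0.40 and -0.15 on the same arrays (fit 0.18 ± 0.17). The control reading of this MTX1 probe on array 3 was 1.38 times the detection limit. Another tested probe of MTX1 had 0.36 on array 3 and 0.01 on array 4 (fit -0.07 ± 0.15). TOMM34, a cytosolic co-chaperone that holds precursors with HSP70 and HSP90, gave 0.10 ± 0.19.

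In the intermembrane space, 4 of 6 genes were higher and 2 lower, with a median of 0.09. CHCHD4, the oxidoreductase that traps small cysteine-rich proteins by forming their disulfide bonds, had ratios between -0.11 and 0.20 and a fit of 0.07 ± 0.14. TIMM9 and TIMM10 together form the hexamer that shields carrier proteins, and their fitted ratios had opposite signs. TIMM10 had log2 signals of 10.47, 10.32, 10.55 and 10.17 in slow-frozen pools and 10.15, 10.08, 9.67 and 10.39 in control pools. It was higher in the slow-frozen pool on arrays 1, 2 and 3 and lower on array 4, with ratios of 0.32, 0.24, 0.87 and -0.21 and a fit of 0.30 ± 0.20 (1.24-fold, 95% interval of the log2 ratio -0.18 to 0.79). Without array 3 the fit was 0.03, and without array 4 it was 0.58.

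TIMM9 had log2 signals of 11.30, 11.12, 10.48 and 10.18 in slow-frozen pools and 11.28, 10.90, 10.51 and 11.16 in control pools. The ratios on arrays 1 to 3 were 0.02, 0.22 and -0.03, and array 4 alone was low at -0.98. The fit of -0.19 ± 0.19 (95% interval -0.65 to 0.27) was 0.05 without array 4 and -0.43 without array 3.

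The second chaperone pair is TIMM8A, the gene mutated in human deafness-dystonia syndrome, with TIMM13. TIMM8A gave ratios of -0.02, -0.10, -0.41 and 0.93, and its fit of 0.10 ± 0.23 was -0.24 without array 4 and 0.44 without array 3. TIMM13 gave -0.13, 0.26, 0.79 and -0.31 (fit 0.15 ± 0.21). TIMM8B, a paralogue of TIMM8A, had log2 signals of 13.61, 13.28, 13.47 and 13.60 in slow-frozen pools and 13.64, 13.75, 13.82 and 13.42 in control pools. It was lower in the slow-frozen pool on arrays 1 to 3 and higher on array 4 (ratios -0.03, -0.47, -0.36 and 0.19), with overlapping groups and a fit of -0.17 ± 0.17 (95% interval -0.57 to 0.23). Without 1 array at a time the fit ran from -0.30 to -0.03.

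TIMM22, the channel of the inner membrane complex that inserts metabolite carriers, had the highest ratio of the import genes. Its log2 signal was 8.31, 8.07, 7.96 and 8.28 in slow-frozen pools against 7.64, 7.48, 7.94 and 7.84 in control pools. Every slow-frozen pool lay above every control pool, by 0.03 at the closest, and such a separation in either direction was found for 1 of 29 import genes and 0.795% of all tested genes. The ratios were 0.67, 0.59, 0.03 and 0.44 on arrays 1 to 4, and the fit gave 0.43 ± 0.15 (1.35-fold, 95% interval of the fold 1.05 to 1.73, limma, adjusted p = 1.00, higher on 4 of 4 arrays). Its unadjusted p was under 0.05, as was that of 0.905% of all tested genes in the same direction. Its readings lay between 1.31 and 2.77 times the detection limit. With mean in place of median spot intensity the ratio was 0.22 and the unadjusted limma p 0.098. Without array 1, 2, 3 or 4 the ratio was 0.41, 0.45, 0.54 and 0.33.

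**Figure D2:**
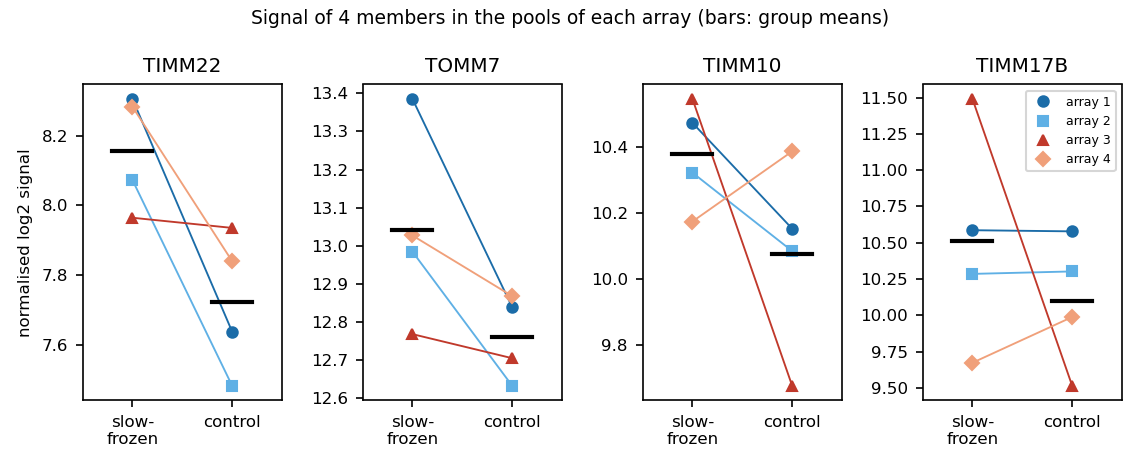
Normalised log2 signal on the y axis (its range differs between panels) for TIMM22, TOMM7, TIMM10 and TIMM17B in the slow-frozen pool (left) and the control pool (right) of each array, joined by a line, with black bars for the group means. The slow-frozen pools of TIMM22 sit between 7.96 and 8.31, above the control pools at 7.48 to 7.94, whereas TIMM17B differs mainly on array 3.

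The TIM23 complex takes precursors with a presequence. TIMM23, its channel subunit, differed by -0.01 ± 0.14, with array ratios between -0.31 and 0.19. TIMM50, the receptor that faces the intermembrane space, had ratios of -0.72, -0.12, 0.95 and -0.26 and a fit of -0.04 ± 0.23. Another tested probe of TIMM50 had ratios of 0.51, 0.39, 0.18 and -0.72 and a fit of 0.09 ± 0.19. TIMM17A, a membrane subunit that is turned over rapidly under stress in cultured cells, had a fit of 0.02 ± 0.15.

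The paralogue TIMM17B had the widest spread of the import genes. Its log2 signal was 10.59, 10.29, 11.49 and 9.67 in slow-frozen pools and 10.58, 10.30, 9.52 and 9.99 in control pools, so that the slow-frozen pool of array 3 was the highest of the 8 readings and the control pool beside it the lowest. The ratios were 0.01, -0.02, 1.98 and -0.32, and the fit gave 0.41 ± 0.35 (95% interval -0.42 to 1.24). It was -0.16 without array 3 and 0.99 without array 4.

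Of the motor genes, 1 was higher and 2 were lower. TIMM44, which tethers the chaperone HSPA9 to the channel, gave 0.12 ± 0.18, with 0.73 on array 2 and between -0.23 and 0.01 on the others; its readings were 1.05 to 2.52 times the limit. GRPEL1 and GRPEL2, nucleotide exchange factors of that chaperone, gave -0.09 ± 0.17 and -0.02 ± 0.16. PMPCA and PMPCB, the subunits of the peptidase that cleaves presequences, gave -0.01 ± 0.17 and -0.04 ± 0.17, and OXA1L, the insertase for proteins entering the inner membrane from the matrix, gave -0.15 ± 0.17.

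Paralogues and partner subunits were compared directly within each array, in 7 pairs. TIMM17A lay below TIMM17B by 0.39 on average (mean difference -0.39, SD 0.84, n = 4 arrays; exact sign-flip permutation test, two-sided, p = 0.5). TIMM8A exceeded TIMM8B by 0.27 (SD 0.37, exact p = 0.375, n = 4) and was the higher on 3 of 4 arrays. The mean difference was -0.24 for MTX1 minus MTX2 and 0.26 for TIMM10 minus TIMM10B, and within 0.1 of zero for GRPEL1 minus GRPEL2, TOMM40 minus TOMM40L and PMPCA minus PMPCB. Adjusted over the 7 pairs, the exact p ran between 0.7 and 1, and 4 arrays cannot give an exact p below 0.125.

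For 12 of the 30 genes the array carried several probes, 17 beyond the brightest, and 15 of these were tested. The fitted ratio of these 15 probes differed from that of the brightest probe of the same gene by a median of 0.08 in size, and its sign was the same for 5 and opposite for 10. The largest difference was at TIMM13: its second probe had ratios of 0.37, 0.33, 0.43 and 0.90 and a fit of 0.51 ± 0.15, higher on all 4 arrays, against 0.15 ± 0.21 for the brightest probe. This probe was singled out after its values were seen. Of 44 tested import probes, it and that of TIMM22 had an unadjusted p under 0.05, in limma, as did 1.88% of all tested probes. The 5 probes of TIMM17A, in contrast, all lay between -0.14 and 0.02.

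**Figure D3:**
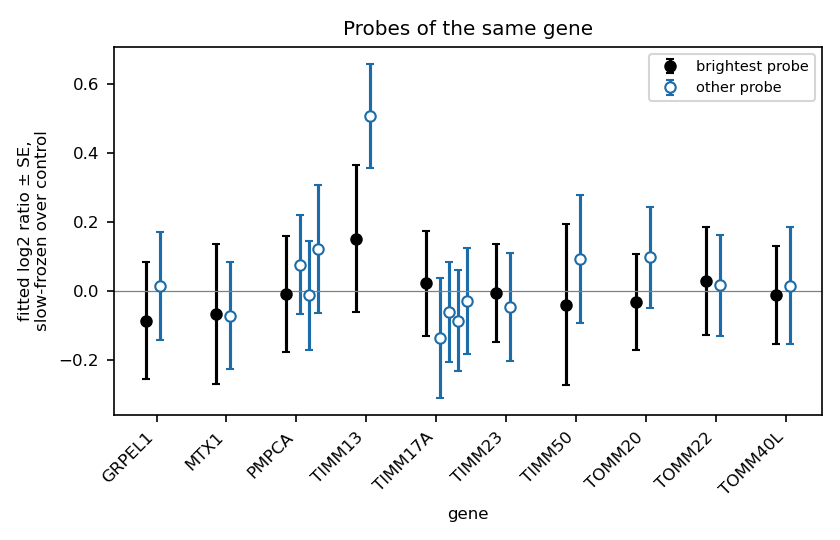
Fitted log2 ratio of slow-frozen over control with its SE (y axis) for the brightest probe (filled) and the other tested probes (open) of the 10 import genes with more than 1 tested probe. The other probes differ from the brightest by a median of 0.08, and the second TIMM13 probe, at 0.51, stands above the first, at 0.15.

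The ratios of the import genes varied from array to array by more than their fitted sizes: the median SD over the 4 arrays was 0.347, and the median size of the fitted ratio 0.085 (0.340 and 0.102 for all tested genes). Their median ratio was -0.04, 0.16, 0.08 and -0.14 on arrays 1 to 4, where that of all tested genes ran from -0.022 to 0.0038, and 10, 18, 19 and 11 of the 29 were higher in the slow-frozen pool. On array 3 the ratios were spread most widely, with an interquartile range of 0.65 (0.41 for all tested genes) and 9 of 29 genes beyond 0.5 in either direction (31.0%, against 20.9%). The control channel of array 3 detected the fewest probes of any channel, 24638, against 29768 in its slow-frozen channel. Its part in this spread was not tested. On array 1 the interquartile range was 0.28, below the 0.48 of all tested genes. No test of these differences was made.

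Most import genes had ratios of opposite sign on arrays 3 and 4. Of the 29 genes, 14 were higher on array 3 and lower on array 4, and 6 the other way round, which makes 69.0% of opposite sign against 57.4% of all tested genes. By their brightest probes, SAMM50, MTX1, TOMM6, TIMM13, TIMM50 and TIMM17B were higher in the slow-frozen pool on array 3 and lower on array 4. TIMM8A and TOMM70 were the reverse. Another tested probe gave 0.36 and 0.01 on arrays 3 and 4 for MTX1, 0.43 and 0.90 for TIMM13, and 0.18 and -0.72 for TIMM50. Of these other probes, only that of TIMM50 was lower on array 4. On arrays 1 and 2 that probe was higher in the slow-frozen pool, where the brightest probe of TIMM50 was lower. Across the 29 genes, which share these pools and are not independent replicates, Pearson's r between the ratios of arrays 3 and 4 was -0.48 (-0.53 without TIMM17B and -0.44 without TIMM8A), beside -0.24 over all tested genes. Both arrays had the slow-frozen pool in Cy3. For arrays 1 and 2 the same r was 0.30 over the import genes and -0.04 over all tested genes.

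**Figure D4:**
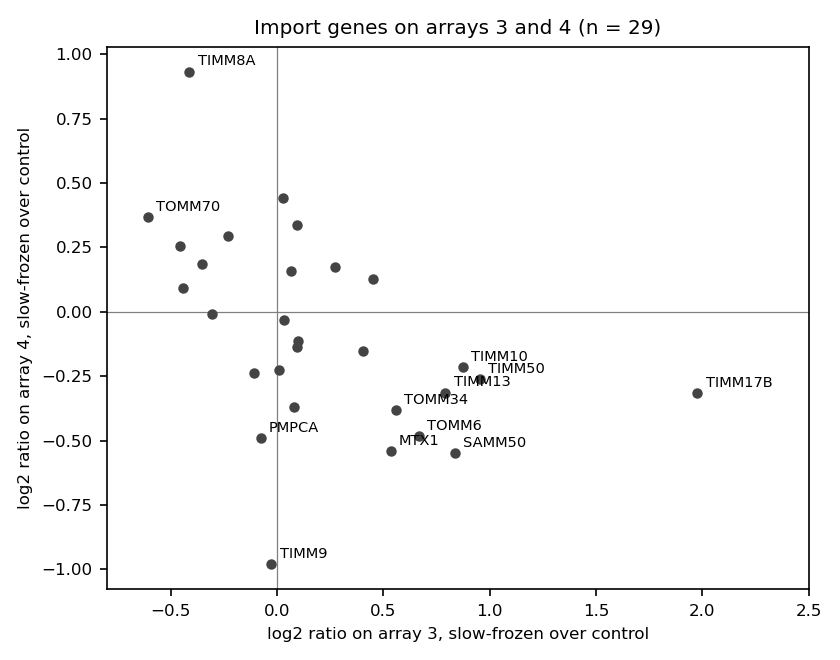
Log2 ratio of slow-frozen over control on array 3 (x axis) and array 4 (y axis). Each point is 1 of the 29 tested import genes by its brightest probe. The genes with ratios above 0.5 on array 3 all lie below 0 on array 4, and TIMM8A and TOMM70 lie at the upper left.

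Oxidative phosphorylation subunits and mitochondrial ribosomal proteins likewise had a positive median on array 3 and a negative one on array 4. Oxidative phosphorylation subunits (79 tested genes) had a median ratio of 0.04 with 42 higher, and 1 with an unadjusted limma p under 0.05. Their medians were 0.21 on array 3 and -0.20 on array 4, with an interquartile range of 0.93 on array 3. Mitochondrial ribosomal proteins (77 tested genes) had a median of -0.03 with 31 higher, and medians of 0.18 and -0.20 on the same arrays. They too had 1 gene with an unadjusted limma p under 0.05, as did 1.91% of all tested genes. The import genes lay between zero and these groups on both arrays, and the difference was not tested. A wider list of 38 tested genes of mitochondrial protein handling, described below, had medians of -0.04 on array 3 and -0.15 on array 4.

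**Figure D5:**
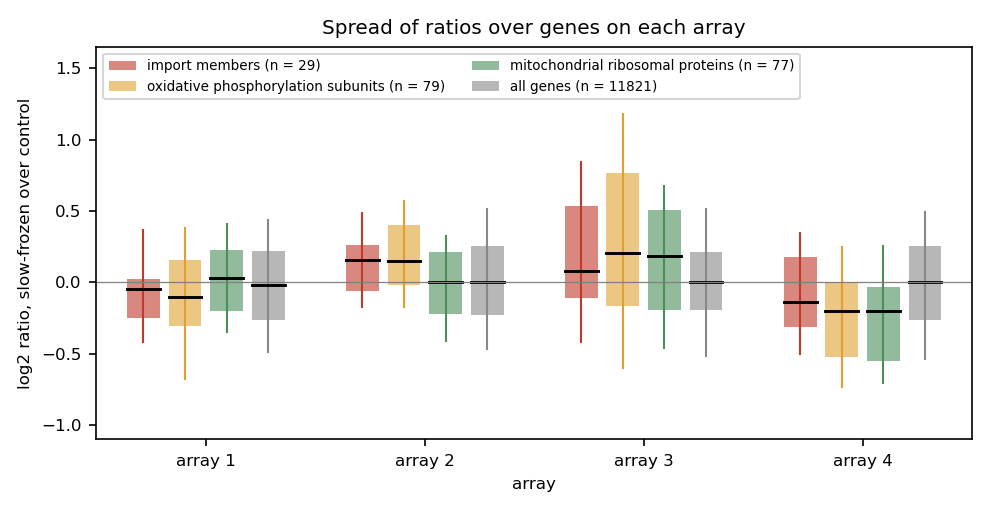
Log2 ratio of slow-frozen over control (y axis) on each array (x axis) for the import genes, oxidative phosphorylation subunits, mitochondrial ribosomal proteins and all tested genes. Boxes span the quartiles, lines the 10th to 90th percentiles, and black bars mark medians. All 3 mitochondrial groups shown have medians above 0 on array 3 and below 0 on array 4, and all tested genes centre near 0.

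Of 3 import genes that the platform lists under older symbols, and that the naming rule therefore missed, TIMM21, a TIM23 subunit, was lower in the slow-frozen pool on all 4 arrays at -0.14 ± 0.14. TIMM29, a TIM22 subunit, gave 0.13 ± 0.20, and TIMM10B, a small TIM of that complex, gave 0.05 ± 0.15.

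Further genes of mitochondrial protein handling, 45 in a list of partners, chaperones, peptidases, cristae-organizing proteins and biogenesis regulators, had 40 with a probe and 38 tested, of which 18 were higher and 20 lower, with a median of -0.01. None was called in limma (0 of 38, and 0% of all tested genes). An unadjusted limma p under 0.05 was found for 1.91% of all tested genes and for 1 of the 38. This was IMMP1L, a subunit of the inner membrane peptidase, with ratios of 0.05, -0.26, -0.54 and -0.74 and a fit of -0.37 ± 0.15, lower on 3 of 4 arrays and the lowest of the list. The highest was APOO, a subunit of the MICOS complex that shapes cristae, with ratios of 0.06, 0.13, 0.39 and 0.70 and a fit of 0.32 ± 0.14. Among 9 translocase partners and motor components 2 were higher and 7 lower, with a median of -0.10. They included HSPA9, the motor chaperone, at -0.04 ± 0.16, and MTCH2, an outer membrane insertase, at -0.22 ± 0.14. The matrix chaperonins HSPD1 and HSPE1 differed by -0.14 ± 0.22 and 0.01 ± 0.14, and TFAM, which packages mitochondrial DNA, by 0.25 ± 0.20.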

How the data were processed

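The authors deposited 1 scanner file per array with median spot and local background intensity in Cy5 and Cy3, neither corrected nor normalized, and a value table on a log2 scale that tracked the Cy5 over Cy3 ratio of each array (r across probes 0.941 to 0.993). RNA had been amplified before labelling. Background was corrected by normexp with an offset of 50, and ratios were normalized by loess within arrays in limma 3.58.1 under R 4.3.3, with control spots at weight 0 and 31 spots ignored, and turned to slow-frozen over control. A probe was tested if at least 4 of its 8 readings passed the limit set by 153 negative control spots (95th percentile); 30473 of 43794 probes were. Ratios were fitted with a treatment and a dye term, eBayes and Benjamini-Hochberg adjustment over all tested probes. The SE leaves out differences between dye orientations. Signals per channel came from Aquantile scaling after loess. Of the probes, 21790 had 1 symbol and 0 had several; 1644 received a current symbol through the RefSeq annotation of ARS-UCD2.0. Where a gene had several probes, the one with the highest mean log2 intensity stood for it. Values on every array were given for import genes with an unadjusted p under 0.05, with the same sign on all 4 arrays, or among the 3 highest and 3 lowest ratios; those of SAMM50, TIMM50, TIMM8A and TIMM13 were added after their values were seen. Of the wider list they were given for those with an unadjusted p under 0.05, the highest and the lowest. The members and lists were chosen with earlier results of these data known. The fit was tested on simulated ratios with independent normal noise of the same SD for every probe. That setting is simpler than these arrays, so it does not test whether p is calibrated for them. Figures were drawn with matplotlib 3.10.9.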

Additional observations from a re-analysis of the deposited data

Results flagged for a closer look

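TIMM17B had a log2 ratio of 1.98 on array 3, far from the other arrays (0.01, -0.02 and -0.32): the gap to the nearest of them took 0.859 of the whole range, more than Dixon's test allows at the 95% level. Chance alone gives such a gap in about 1 gene of 20. It was seen for 1 of 29 import genes (3.45%) and for 4.94% of all tested genes.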

How the results depend on the processing

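No import gene was called in limma under any alternative that kept all 4 arrays, and the lowest adjusted p among these was 0.795, with median centring. Median centring of each array in place of loess moved the list median most. It moved the median of all tested genes to -0.128: the median of the import genes was then -0.227 and 4 of 29 were higher (28.0% of all tested genes). Of the 29, 2, OXA1L and TIMM9, then had an unadjusted limma p under 0.05, as did 7.74% of all tested genes. Relative to the shift of all genes the median of the import genes was -0.098. TIMM8B was then at -0.48 and TOMM7 at -0.02. Without the detection filter 2 of 30 genes, TIMM22 and TOMM7, had an unadjusted limma p under 0.05, as did 2.57% of all genes in that fit. Leaving out 1 array at a time gave 11 to 21 higher genes and medians of -0.058 to 0.096. Because the dye term stayed in these fits, a lone array of 1 orientation counted as much as the other pair. That array was fitted exactly, so its spread could not enter p, and no p is given for these fits. TIMM22 kept a positive ratio throughout, 0.22 to 0.54. TOMM7 took its place under mean spot signal as the 1 gene with an unadjusted limma p under 0.05, against 2.83% of all tested genes. The largest move of a single gene was 0.573, for TIMM17B without array 3 or array 4. Of the 29 ratios, 9 changed sign with median centring, 5 with mean spot signal, 4 with quantile normalization, 5 with the mean of all tested probes, 8, 6, 9 and 10 without arrays 1 to 4, 1 each with plain background subtraction, no background correction and the deposited value table, and 0 with the other filters and variance settings. The cause of these shifts was not tested. No further paired analysis was possible because both pools of a pair share an array and the ratio already pairs them. Signals near background limit TOMM40, TIMM44 and TIMM22. The lowest readings of MTX1, TOMM34, PMPCA and TOMM40L were also near it, at 1.38, 1.58, 1.66 and 1.70 times the detection limit.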
